A study of Mus musculus with 18 samples.

Results

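The genes described here code for enzymes that cut or cross-link the extracellular matrix and for the inhibitors of these enzymes. They are the matrix metalloproteinases (MMPs), the tissue inhibitors of metalloproteinases (TIMPs), the ADAMTS proteases and the lysyl oxidases. Members were chosen by symbol alone, among rows with an Entrez gene ID, and number 51 of the 52093 symbols in the deposited files (30975 with such an ID). Of the 51, 23 are MMP genes, 4 are TIMP genes, 19 are ADAMTS genes and 5 are lysyl oxidase genes. All 51 were found under the same symbol in an independent annotation of the same genome build (GENCODE vM1, mm9).

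RNA was sequenced from 18 samples of male wild-type C57BL/6 mice, 16 weeks old, kept for 12 weeks on high fat diet (HFD). There were 6 samples of adipocytes from inguinal white adipose tissue (iWAT), 6 of adipocytes from epididymal white adipose tissue (eWAT) and 6 of brown adipose tissue (BAT). White adipocytes were the cells that floated after the depots had been digested with collagenase I, whereas BAT was frozen as a whole tissue. A treatment field of the labels gives regular chow for these samples, against their titles, the design text and the extraction protocol, and they were taken as HFD samples. The substrain is not settled either, since the strain field gives C57BL/6, the extraction protocol C57BL/6J and the study's description of these mice C57BL/6NTac. Samples are named by the number in their title (1, 2, 3, 4, 5 and 16 for both white depots, 1, 2, 5, 16, 17 and 18 for BAT). The labels do not say what the number marks, so the p-values measure the spread between these samples.

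MMPs are zinc enzymes that are made as inactive precursors and, once activated, cleave collagens and other matrix proteins. TIMPs bind to active MMPs and block them. ADAMTS proteases cut proteoglycans such as versican and aggrecan or trim the ends of procollagens, and lysyl oxidases cross-link collagen and elastin fibres. In fat, the matrix around each adipocyte has to be reworked when the cell enlarges, and macrophages that enter an obese depot are a known source of some of these enzymes.

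Levels are the deposited RPKM, which divides the reads of a row by its length and by the size of the library. A gene was called expressed at a mean of at least 1 RPKM, and a tissue is said to be at the floor for a gene where none of its samples had more than 3 reads. Each pair of tissues was compared on TMM-normalized counts by the quasi-likelihood test of edgeR (two-sided, n = 6 samples per tissue, Benjamini-Hochberg adjusted p under 0.05). A positive log2 fold change means a higher level in the tissue named first, and each is given with its standard error (SE).

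Reads on the rows numbered 26768529 to 30166441 per sample in iWAT adipocytes, 24655056 to 37438994 in those of eWAT and 27402247 to 42518483 in BAT. The 4 brown adipocyte markers marked BAT (summed RPKM 1990 to 2630, against at most 12.1 in any white sample), and the 4 adipocyte markers were present in every sample. All 4 adipocyte markers (Adipoq, Plin1, Cidec and Lep) were higher in iWAT than in eWAT adipocytes with no overlap, by a median log2 fold change of 1.44, and their part in the differences between the white depots was not tested. All 6 macrophage markers were higher in eWAT than in iWAT adipocytes and higher in either than in BAT. Their summed RPKM was 2520 to 4100 in eWAT adipocytes, 452 to 874 in iWAT adipocytes and 23.9 to 47.4 in BAT. The 4 endothelial markers summed to 104 to 296, 35.0 to 75.0 and 70.8 to 105 in the same order. All 14 genes of a list known to respond to tissue dissociation, among them Fos, were higher in both white depots than in BAT (summed RPKM 3000 to 5580, 2560 to 3900 and 59.4 to 480). The BAT samples were also sequenced in other lanes than the white adipocytes, so tissue, preparation and lane cannot be told apart in any comparison with BAT.

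Of the 51 genes, 28 were expressed in iWAT adipocytes, 27 in those of eWAT and 16 in BAT. The same 16 were expressed in all 3 tissues: Adamts1, Adamts5, Adamts9, Adamts10, Lox, Loxl1, Loxl2, Loxl3, Mmp2, Mmp15, Mmp19, Mmp24, Mmp28, Timp2, Timp3 and Timp4. Another 13 were expressed in at least 1 tissue, and 22 did not reach 1 RPKM in any. Adamts13, Adamts19, Mmp1a, Mmp7, Mmp16, Mmp20 and Mmp21 were at the floor in all tissues, and their expression was not detectable at this depth. The most abundant member of each tissue differed. It was Mmp12 in eWAT adipocytes (418 ± 169 RPKM, mean ± SD, n = 6, rank 68 of the 30975 symbols), Adamts1 in iWAT adipocytes (68.6 ± 22.5 RPKM, rank 553) and Timp3 in BAT (26.5 ± 4.82 RPKM, rank 969).

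**Figure D1:**
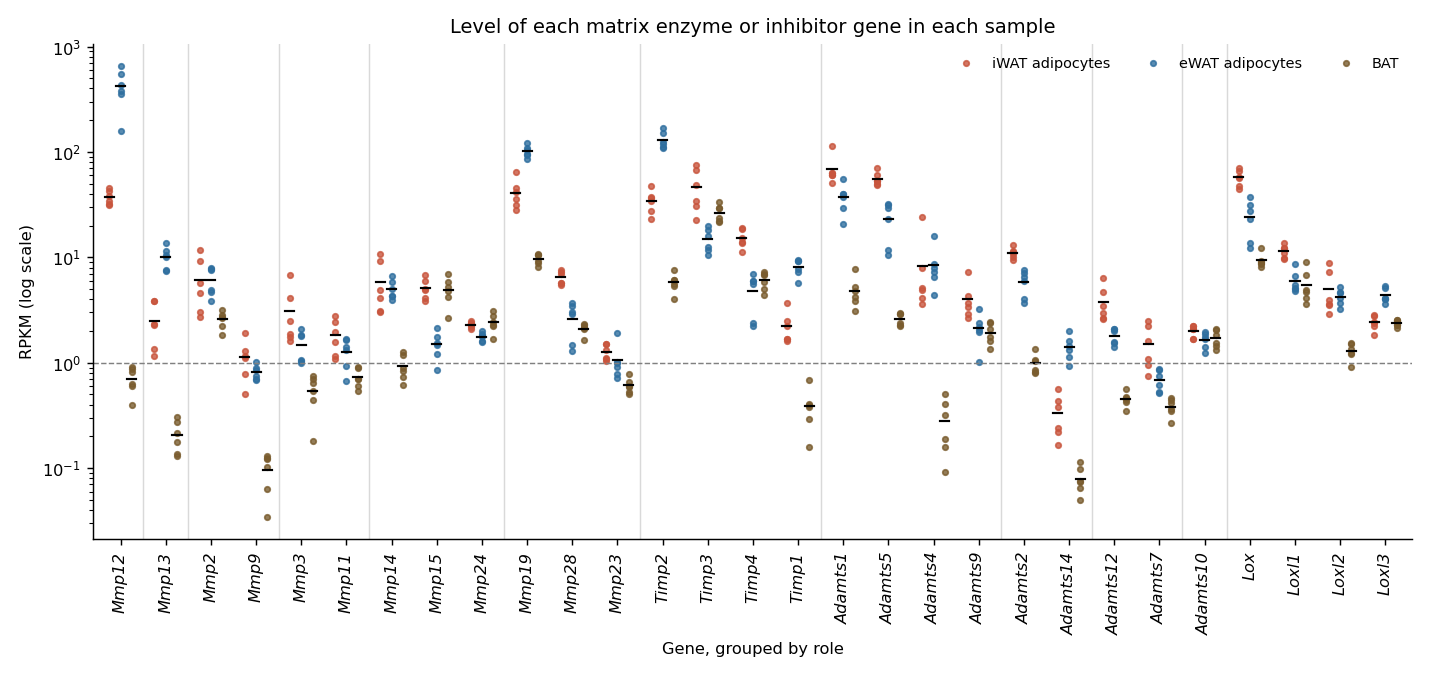
RPKM (log scale) of the 29 genes with a mean of at least 1 RPKM in at least 1 tissue, 1 point per sample and a bar at the mean of the 6 samples, with genes grouped by role and a dashed line at 1 RPKM. Mmp12, Mmp13, Mmp19, Timp1 and Timp2 stand highest in eWAT adipocytes, Adamts1, Adamts5 and Lox in iWAT adipocytes, and most genes are lowest in BAT.

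Between iWAT and eWAT adipocytes, 28 of the 37 members tested differed, of which 19 had more transcript in iWAT and 9 in eWAT adipocytes. Over all 19623 symbols tested, 68.6% were called (34.1% with iWAT and 34.5% with eWAT adipocytes higher). Between iWAT adipocytes and BAT, 30 of 35 members differed, with 25 higher in the adipocytes and 5 in BAT, against 75.3% of all symbols (38.1% and 37.2%). Between eWAT adipocytes and BAT, 30 of 35 members differed, with 21 higher in the adipocytes and 9 in BAT, against 82.5% of all symbols (41.1% and 41.4%). Members were thus called about as often as other genes, and the calls leaned to the first tissue of each comparison. The samples of the 2 tissues did not overlap for 20, 23 and 23 members, beside 43.5%, 56.4% and 66.3% of all symbols tested (TMM-scaled RPKM). Median log2 fold changes of the members tested were 0.47, 1.45 and 0.85 in the order given, beside 0.00, 0.01 and -0.02 over all symbols. The 3 comparisons share their samples in pairs and are not independent. In no comparison were the counts taken over all 51 genes, since 14 had too few reads to be tested in any.

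The comparisons with BAT depend on the scaling. TMM factors averaged 1.35 in iWAT adipocytes and 0.745 in BAT, so a log2 fold change over BAT lies below the ratio of the RPKM means. Without TMM the median log2 fold change of all symbols was 0.87 for iWAT adipocytes over BAT and 0.89 for eWAT adipocytes over BAT. All 31 members then called by edgeR between iWAT adipocytes and BAT were higher in iWAT adipocytes (0 were higher in BAT, also at an unadjusted p under 0.05). Between eWAT adipocytes and BAT, 25 were then higher in the adipocytes and 3 in BAT. Between the white depots, where that median moved to -0.08, they were 18 and 9.

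**Figure D2:**
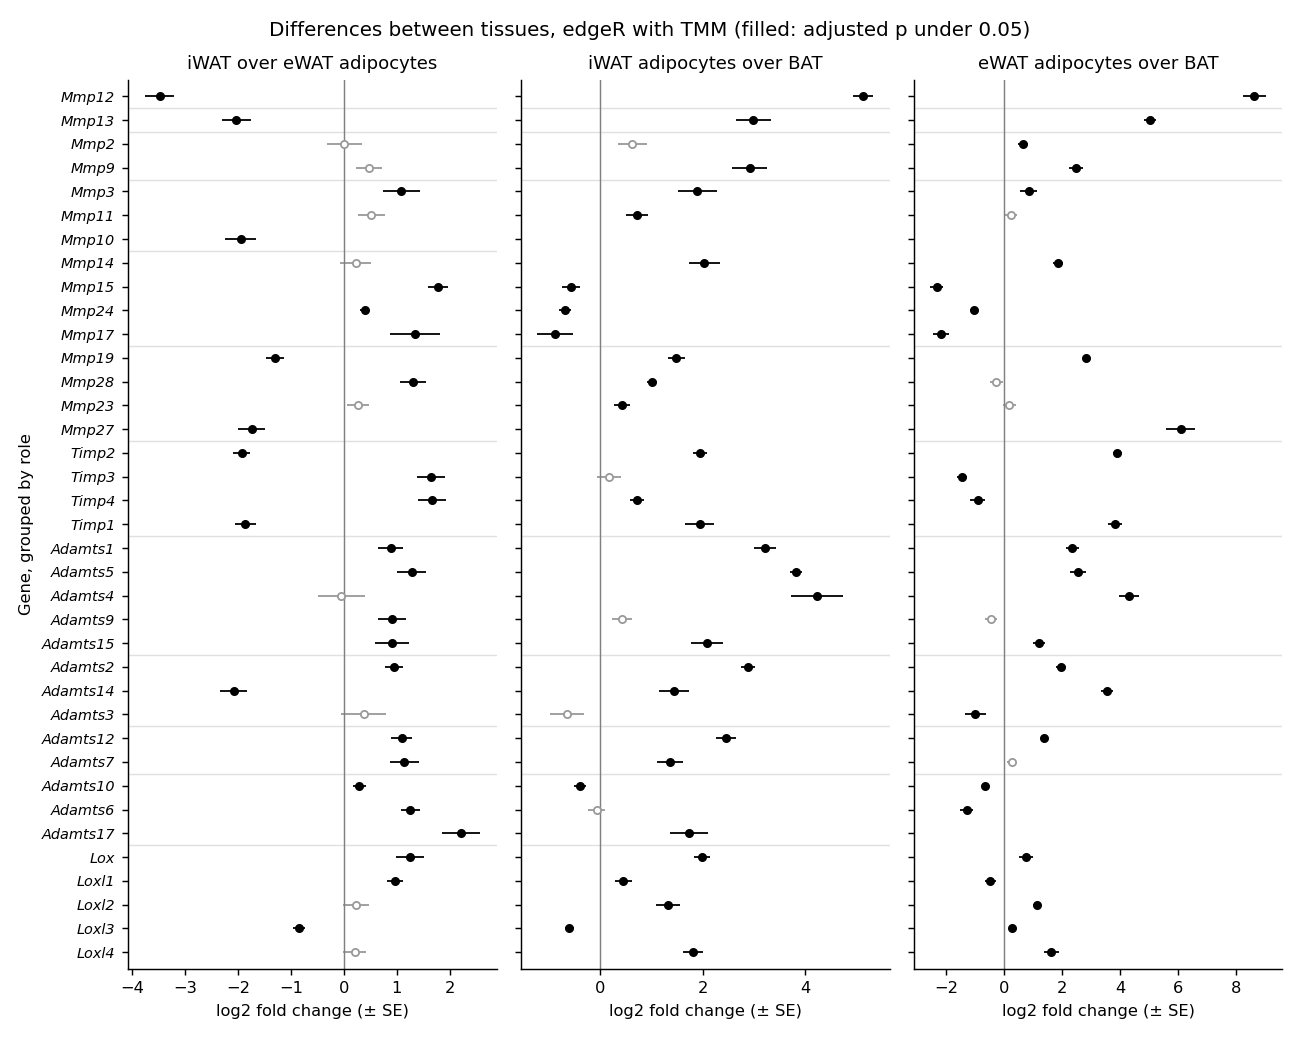
Log2 fold change (point) and its SE (bar) for each of the 37 genes tested in at least 1 comparison, with filled points where the edgeR adjusted p was under 0.05. In the first panel points to the left are higher in eWAT adipocytes, and in the other 2 panels most points lie to the right of 0, higher in white adipocytes than in BAT.

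Mmp12 codes for the macrophage elastase, a protease that cleaves elastin. In iWAT adipocytes it had 33.9, 31.6, 45.3, 38.5, 42.4 and 32.0 RPKM in samples 1, 2, 3, 4, 5 and 16. In eWAT adipocytes it had 647, 377, 545, 356, 157 and 427 RPKM in the same order, and in BAT it had 0.394 to 0.911 RPKM. The 3 tissues did not overlap, and the lowest eWAT sample, number 5, still exceeded every iWAT sample. The log2 fold change was -3.48 (SE 0.28, edgeR adjusted p = 4.8e-07) for iWAT over eWAT adipocytes, 5.12 (SE 0.19) in iWAT adipocytes relative to BAT and 8.63 (SE 0.39, adjusted p = 1.6e-11) in eWAT adipocytes relative to BAT. These were the largest differences of any member in each of the 3 comparisons. Mmp12 made up 48.3 ± 11.3% of the summed RPKM of all 51 genes in eWAT adipocytes (range 28.9 to 61.7%) and 8.43 ± 1.36% in iWAT adipocytes. Among the eWAT samples, numbers 1 and 3 had the highest Mmp12 and also the highest summed macrophage markers (4100 and 4022 RPKM, against 2516 to 2813 in the other 4). Leaving out these 2 samples gave a log2 fold change of -3.15 for iWAT over eWAT adipocytes and 8.3 for eWAT adipocytes over BAT. In these bulk samples, fewer cells of a type and less RNA per cell cannot be told apart, and the part of macrophage RNA in the level of Mmp12 was not tested.

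Mmp12 lies in a run of 10 MMP genes that spans 427.1 kb of chromosome 9, in the order Mmp13, Mmp12, Mmp1b, Mmp3, Mmp1a, Mmp10, Mmp8, Mmp27, Mmp20 and Mmp7. These genes arose by duplication and code for collagenases, stromelysins, a matrilysin, the macrophage elastase and enamelysin. Mmp12 extends from 7344381 to 7369499 and Mmp13 from 7272514 to 7283333 (mm9, both on the plus strand). Of the 10 genes, Mmp13, Mmp12, Mmp10 and Mmp27 were higher in eWAT than in iWAT adipocytes. Mmp3 was higher in iWAT adipocytes, and the other 5 had too few reads to be tested. Mmp10 (2 to 8 reads per iWAT sample) and Mmp27 (2 to 10) reached the mean count of 10 only through eWAT adipocytes. Their direction was thus partly fixed by the filter, and the count of genes in each direction is no result about the run.

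Mmp13, the principal interstitial collagenase of the mouse, had 1.34, 2.26, 3.87, 1.15, 3.84 and 2.35 RPKM in the iWAT samples. It had 7.54, 11.5, 13.8, 10.5, 10.0 and 7.37 RPKM in the eWAT samples and 0.130 to 0.306 RPKM in BAT, with no overlap between the tissues. Its log2 fold changes were -2.03 (SE 0.28, edgeR adjusted p = 3.8e-05) for iWAT over eWAT adipocytes and 5.03 (SE 0.22) for eWAT adipocytes over BAT. Mmp10 and Mmp27, a stromelysin and an MMP of little known function, were low. Mmp10 had 12 to 20 reads per sample in eWAT adipocytes (0.320 ± 0.0556 RPKM), 2 to 8 in iWAT adipocytes and 0 in all BAT samples, and was at least 2.37-fold higher in eWAT adipocytes than the level that 3 reads give in BAT. Mmp27 had 22 to 34 reads in eWAT adipocytes (0.387 ± 0.0669 RPKM), 2 to 10 in iWAT adipocytes and at most 1 in BAT, for a bound of at least 3.66-fold over BAT. Between the white depots the log2 fold changes were -1.95 (SE 0.29) for Mmp10 and -1.74 (SE 0.26) for Mmp27.

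The neutrophil collagenase gene Mmp8 had 4 to 15 reads per eWAT sample and at most 3 in any other sample, a level at least 2.34-fold higher in eWAT adipocytes than 3 reads give in iWAT adipocytes. Of the 4 neutrophil markers, S100a8 was higher in both white depots (6.06 ± 0.855 and 5.72 ± 2.53 RPKM) than in BAT (0.489 ± 0.286 RPKM) and did not differ past the threshold between them. S100a9, which had too few reads to be tested, averaged highest in BAT instead. Its means were 0.18 RPKM in iWAT adipocytes, 0.0668 in those of eWAT and 0.41 in BAT. Retnlg averaged at most 0.087 RPKM in any tissue, and Ly6g had 0 reads in every sample. Mmp1b had 1 to 19 reads in the eWAT samples, at most 2 in iWAT adipocytes and 0 in BAT. Its row overlaps that of Mmp12, with 10.8% of its exon bases shared, so that its reads could not be assigned with certainty.

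Mmp3, the stromelysin that also activates other MMP precursors, was the exception in the run. Its RPKM in the iWAT samples was 4.10, 1.87, 1.75, 2.51, 6.87 and 1.62, against 2.07, 1.07, 1.79, 1.85, 0.998 and 1.03 in the eWAT samples and 0.182 to 0.749 in BAT. The white depots overlapped, and iWAT samples 1 and 5 carried the highest values. The log2 fold change between them was 1.08 (SE 0.35, edgeR adjusted p = 0.014). Without iWAT samples 1 and 5 it was 0.46 and did not pass (edgeR adjusted p = 0.10).

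The promoter sequences of the 5 genes of the run that could be tested between the white depots are given here because these neighbours differed in direction. Each is the 250 bases before a RefSeq start (GRCm38.p6, plus strand, 5′ to 3′). Capitals mark TGANTCA, the core recognised by AP-1 factors such as Fos and Jun, which reads the same on both strands, and the TATA box letters TATAAA, searched on both strands. For Mmp12, which has 2 starts in the table, the start with a match is shown.
Mmp13, chr9:7272264-7272513: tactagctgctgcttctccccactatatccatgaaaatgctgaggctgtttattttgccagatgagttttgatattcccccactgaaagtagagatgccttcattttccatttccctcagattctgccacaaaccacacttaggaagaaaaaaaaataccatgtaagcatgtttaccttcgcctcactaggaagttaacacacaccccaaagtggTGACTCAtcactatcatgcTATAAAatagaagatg
Mmp12, chr9:7347124-7347373: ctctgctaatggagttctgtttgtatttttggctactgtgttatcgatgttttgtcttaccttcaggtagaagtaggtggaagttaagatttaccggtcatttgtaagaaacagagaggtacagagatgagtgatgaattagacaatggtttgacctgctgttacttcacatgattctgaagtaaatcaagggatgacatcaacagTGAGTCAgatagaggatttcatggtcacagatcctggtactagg
Mmp3, chr9:7445572-7445821: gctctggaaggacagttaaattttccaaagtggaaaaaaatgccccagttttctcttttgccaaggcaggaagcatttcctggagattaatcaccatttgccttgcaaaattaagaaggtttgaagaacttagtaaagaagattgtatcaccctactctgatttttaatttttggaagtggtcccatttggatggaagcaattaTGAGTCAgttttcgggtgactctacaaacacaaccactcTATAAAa
Mmp10, chr9:7502092-7502341: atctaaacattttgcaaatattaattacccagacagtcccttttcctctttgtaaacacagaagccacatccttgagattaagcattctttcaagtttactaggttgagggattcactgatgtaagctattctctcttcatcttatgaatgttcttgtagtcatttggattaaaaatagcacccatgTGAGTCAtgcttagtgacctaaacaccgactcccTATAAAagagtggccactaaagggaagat
Mmp27, chr9:7571146-7571395: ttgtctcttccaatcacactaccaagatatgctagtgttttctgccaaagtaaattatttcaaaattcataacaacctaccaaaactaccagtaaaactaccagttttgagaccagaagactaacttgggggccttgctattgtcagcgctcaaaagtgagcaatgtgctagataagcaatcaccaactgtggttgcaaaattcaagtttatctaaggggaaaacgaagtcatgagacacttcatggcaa

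Members on chromosome 18 (Lox and Adamts19) were left out of the promoter reading, and windows were found for 33 of the 51 genes. TGANTCA stood in a window of 8 of the 10 genes of the run, all but Mmp8 and Mmp27. It stood in a window of 0 of the other 23 members. A gene with several starts was counted if any window held the motif, and the other start of Mmp12 had no match. Counted by window, 22.2% of the 36 windows of these 33 genes held it. Of all 32851 windows, chromosome 18 included, 6.7% held it. In Mmp13, Mmp12, Mmp3 and Mmp10 it began 35, 44, 46 and 63 bases before the start. TATAAA was found in 7 of the 10 genes and in 2 of the other 23 (Adamts1 and Mmp21). It stood in 25.0% of the 36 windows, beside 12.4% of all windows. TGANTCA was thus found both in genes that were higher in eWAT adipocytes and in Mmp3, which was higher in iWAT adipocytes. It was missing from Mmp27, which was higher in eWAT adipocytes. Fos itself had 458 ± 82.3 RPKM in iWAT adipocytes, 327 ± 40.9 in those of eWAT and 1.51 ± 1.29 in BAT. A match of letters is no evidence of binding.

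**Figure D3:**
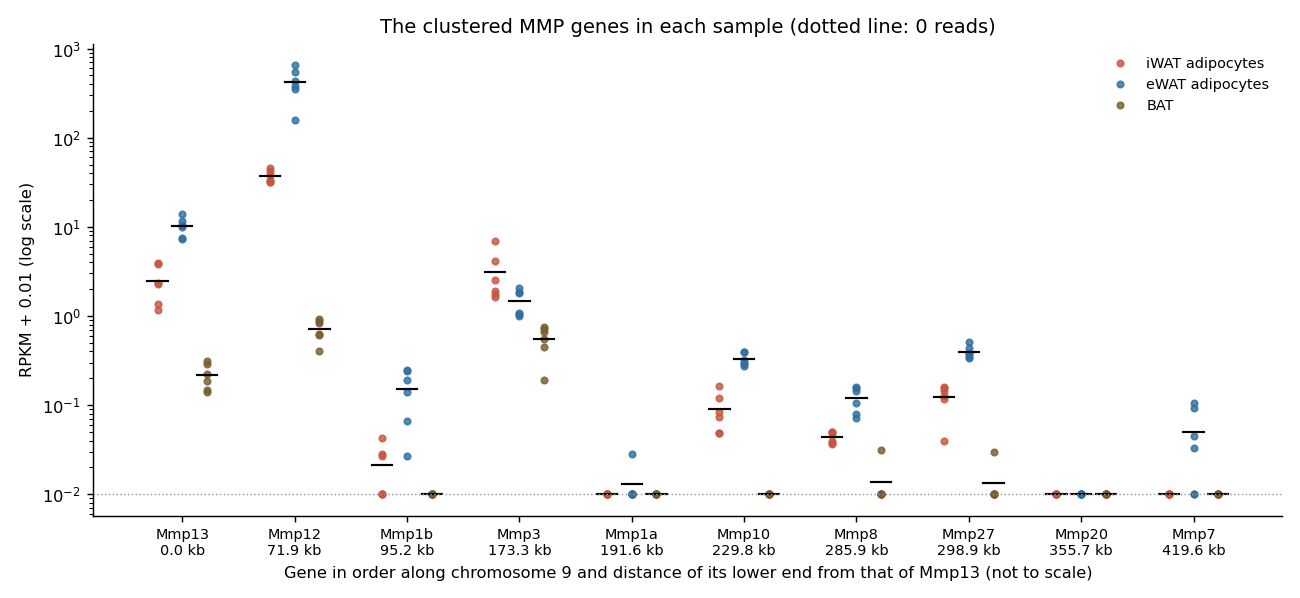
RPKM plus 0.01 (log scale) of the 10 clustered MMP genes in chromosomal order, 1 point per sample, a bar at the mean and, below each name, the distance of the gene's lower end from that of Mmp13. In 4 of the 5 genes that could be tested the eWAT samples stand above all iWAT samples. Mmp10 and Mmp27, among these 4, passed the filter on reads only through eWAT adipocytes. The eWAT samples of Mmp3 lie among or below the lower iWAT samples.

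Among the gelatinases, which cleave denatured collagen and the type IV collagen of basement membranes, the white depots did not differ past the threshold. Mmp2 had 9.21, 4.55, 2.69, 5.67, 11.8 and 3.01 RPKM in the iWAT samples, 7.88, 4.65, 7.70, 7.50, 3.88 and 4.93 in the eWAT samples and 1.81 to 3.19 in BAT. Its log2 fold change of 0.01 between the white depots had an SE of 0.33, and its sign changed with the setting. The iWAT samples ranged from 2.69 to 11.8 RPKM and spanned all eWAT samples. Mmp2 was higher in eWAT adipocytes than in BAT (0.66, SE 0.17, edgeR adjusted p = 0.0024). Mmp9 was higher in both white depots (1.13 ± 0.477 and 0.818 ± 0.131 RPKM) than in BAT (0.0967 ± 0.0391 RPKM), with log2 fold changes of 2.92 (SE 0.34) and 2.47 (SE 0.24). Mmp11, a stromelysin with a furin site, had 1.83 ± 0.693, 1.28 ± 0.40 and 0.725 ± 0.152 RPKM and was called only for iWAT adipocytes over BAT (0.72, SE 0.21, edgeR adjusted p = 0.0069). That call was lost without iWAT samples 1 and 5 (0.43, edgeR adjusted p = 0.056).

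The membrane-type MMPs are anchored at the cell surface, and Mmp14 activates the precursor of Mmp2. In iWAT adipocytes Mmp14 had 9.29, 4.12, 3.0, 4.87, 10.8 and 3.09 RPKM, in eWAT adipocytes 3.90 to 6.67 and in BAT 0.617 to 1.27. Samples 1 and 5 of iWAT adipocytes were highest for Mmp14, as they were for Mmp2. The log2 fold change over BAT was 2.03 (SE 0.30) in iWAT and 1.85 (SE 0.17) in eWAT adipocytes, and 0.22 (SE 0.29) between the white depots, short of the threshold (-0.35 without iWAT samples 1 and 5). Only 70.2% of the Mmp14 row lies in the GENCODE gene. The other 3 expressed or called members of this class went the other way. Mmp15 had 3.86 to 6.85 RPKM in iWAT adipocytes, 0.849 to 2.11 in those of eWAT and 2.65 to 6.96 in BAT, so that eWAT adipocytes stood below both other tissues. It was higher in iWAT than in eWAT adipocytes (1.78, SE 0.19, edgeR adjusted p = 4.7e-06) and lower in eWAT adipocytes than in BAT (-2.32, SE 0.22). Mmp24 (2.30 ± 0.156, 1.77 ± 0.161 and 2.42 ± 0.494 RPKM) and Mmp17 (0.248 ± 0.161, 0.0988 ± 0.0561 and 0.292 ± 0.0667 RPKM) were also lowest in eWAT adipocytes. Their RPKM means were higher in BAT than in iWAT adipocytes, unlike those of Mmp15 (4.94 and 5.12). The Mmp17 call between the white depots (1.34) was lost without iWAT samples 1 and 5, without eWAT samples 1 and 3 and with limma. For iWAT adipocytes over BAT, Mmp15 (-0.56, SE 0.17), Mmp17 (-0.86, SE 0.35) and Mmp24 (-0.67, SE 0.12) were called higher in BAT, but without TMM their log2 fold changes were 0.30, 0.01 and 0.18. Mmp16 and Mmp25 were too low to be tested.

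Of the remaining MMPs, Mmp19 was the most abundant, and in BAT it held 37.5 ± 2.05% of the summed MMP level. Mmp19 is a widely expressed MMP that cleaves basement membrane proteins. Its RPKM was 31.7, 28.4, 63.9, 36.1, 41.4 and 45.5 in the iWAT samples, 122, 95.4, 110, 86.3, 93.4 and 104 in the eWAT samples and 8.07 to 10.7 in BAT. The tissues did not overlap, with log2 fold changes of -1.30 (SE 0.17, edgeR adjusted p = 2.6e-05) for iWAT over eWAT adipocytes, 1.49 (SE 0.16) in iWAT adipocytes relative to BAT and 2.81 (SE 0.10) in eWAT adipocytes relative to BAT. The Mmp19 row lies within that of 1110012D08Rik on the opposite strand, 23.1% of its exon bases are shared with it in GENCODE, and its reads are uncertain to that extent. Mmp28, or epilysin, was highest in iWAT adipocytes (5.44 to 7.56 RPKM, against 1.30 to 3.65 in those of eWAT and 1.63 to 2.33 in BAT). It was called for iWAT over eWAT adipocytes (1.30, SE 0.24, edgeR adjusted p = 3.6e-04) and for iWAT adipocytes over BAT (1.01, SE 0.10). Mmp23, of which only 10.8% of the row lies in the GENCODE gene, had 1.26 ± 0.207, 1.06 ± 0.439 and 0.612 ± 0.103 RPKM and was called for iWAT adipocytes over BAT alone (0.43, SE 0.15). That Mmp23 call was lost with all 18 samples in 1 fit (0.41, edgeR adjusted p = 0.084) and without iWAT samples 1 and 5 (0.34, adjusted p = 0.082). Exon bases shared with another gene make up 12.0% of Mmp28, 13.6% of Mmp24 and, among the ADAMTS genes, 14.4% of Adamts9.

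The 4 TIMP genes divided evenly between the white depots, and all 4 differed. Of all symbols, 68.6% were called there, with 34.1% higher in iWAT and 34.5% in eWAT adipocytes. Timp2 (chromosome 11, 118162375 to 118217054, minus strand), which also takes part in the activation of the Mmp2 precursor, had 36.5, 22.9, 37.0, 34.5, 47.2 and 27.7 RPKM in the iWAT samples and 151, 112, 170, 125, 108 and 119 RPKM in the eWAT samples. In BAT it had 4.01 to 7.55 RPKM, and no sample of a tissue overlapped another tissue. Log2 fold changes were -1.93 (SE 0.16, edgeR adjusted p = 5.3e-07) for iWAT over eWAT adipocytes, 1.95 (SE 0.14) in iWAT adipocytes relative to BAT and 3.91 (SE 0.15) in eWAT adipocytes relative to BAT. Timp1, an inhibitor known to be induced in inflammation, had the same order at a lower level. It had 1.62 to 3.72 RPKM in iWAT adipocytes, 5.73 to 9.49 in those of eWAT and 0.159 to 0.690 in BAT (-1.86, SE 0.20, for iWAT over eWAT adipocytes).

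Timp3 (chromosome 10, 85763117 to 85812251, plus strand), which binds to the matrix and also inhibits ADAMTS proteases and sheddases, was lowest in eWAT adipocytes. It had 68.0, 30.7, 34.0, 48.4, 75.5 and 22.5 RPKM in the iWAT samples, 11.7, 12.5, 15.8, 20, 10.5 and 18 in the eWAT samples and 29.1, 29.1, 33.6, 23.7, 21.9 and 21.8 in the BAT samples. The lowest iWAT sample lay just above the highest eWAT sample, and iWAT adipocytes and BAT overlapped. The log2 fold change was 1.64 (SE 0.27, edgeR adjusted p = 1.5e-04) for iWAT over eWAT adipocytes and -1.44 (SE 0.17) for eWAT adipocytes over BAT, whereas 0.18 (SE 0.24) for iWAT adipocytes over BAT did not pass. Timp4, the inhibitor gene most restricted in its tissues, was highest in iWAT adipocytes (11.2 to 18.9 RPKM, against 2.23 to 7.02 in those of eWAT and 4.4 to 7.24 in BAT). It was called in each comparison, with log2 fold changes of 1.66 (SE 0.27), 0.73 (SE 0.14) and -0.91 (SE 0.25), of which the last was -0.01 without TMM. Only 67.8% of the Timp4 row lies in the GENCODE gene. The rows of Timp1, Timp3 and Timp4 lie within those of the synapsin genes Syn1, Syn3 and Syn2, on the opposite strand. Whether the counting used strand is not given in the sources used here, and 21.3% of the exon bases of Timp3 are shared with Syn3, so that reads of these pairs could not be assigned with certainty.

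Summed over their genes, TIMP transcripts made up 98.3 ± 30.6 RPKM in iWAT adipocytes, 158 ± 22.8 in those of eWAT and 38.8 ± 6.14 in BAT. Timp2 held 82.1 ± 4.04% of this sum in eWAT adipocytes, and Timp3 held 68.3 ± 3.15% of it in BAT and 45.6 ± 8.00% in iWAT adipocytes. MMP genes summed to 115 ± 18.5, 553 ± 181 and 25.9 ± 3.44 RPKM. The ratio of the TIMP sum to the MMP sum was 0.602 to 1.13 in iWAT adipocytes, 0.215 to 0.484 in those of eWAT and 1.11 to 2.19 in BAT. The eWAT samples lay below all others in this ratio. Without Mmp12 the ratios overlapped (0.868 to 1.62, 1.09 to 1.32 and 1.14 to 2.29), so that the low ratio of eWAT adipocytes rested on that gene. These are ratios of transcript levels and were not tested.

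**Figure D4:**
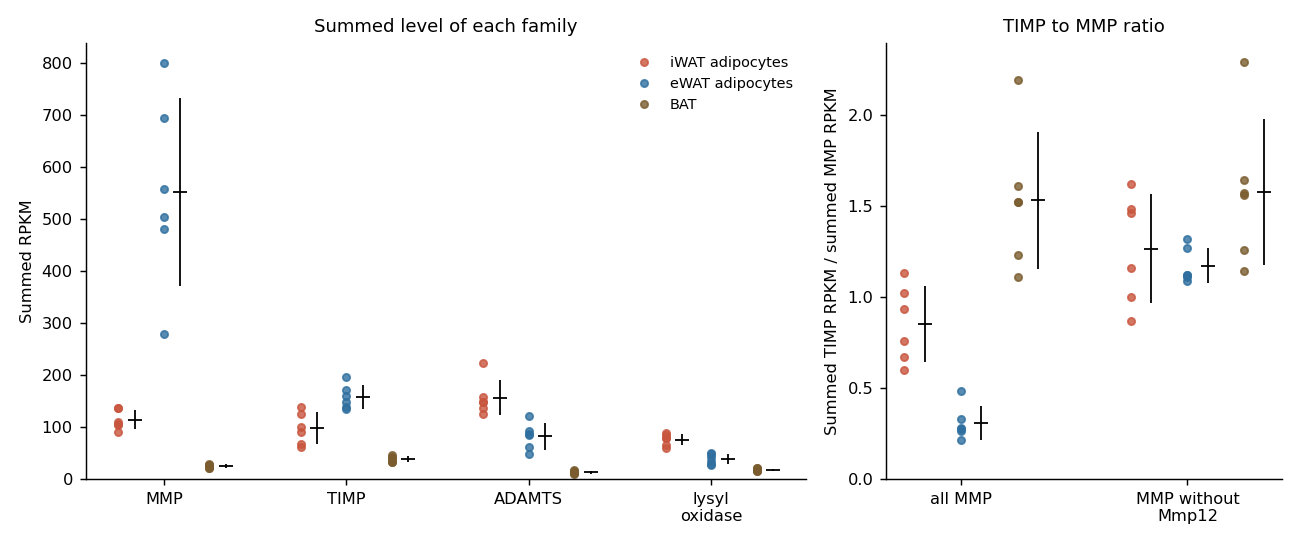
Summed RPKM of the MMP, TIMP, ADAMTS and lysyl oxidase genes (left) and the ratio of the TIMP to the MMP sum with and without Mmp12 (right), 1 point per sample with mean ± SD beside the points. The eWAT samples have the highest MMP sums, from 279 to 800 RPKM, and the lowest ratios, which rise into the range of the other tissues when Mmp12 is left out.

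The ADAMTS genes leaned to iWAT adipocytes. Of the 13 tested between the white depots, 10 were higher in iWAT adipocytes and 1, Adamts14, in eWAT adipocytes. The 15 MMP genes tested had 5 in each direction. Of all symbols, 34.1% were higher in iWAT and 34.5% in eWAT adipocytes. All 4 endothelial and all 4 mural and smooth muscle markers were also higher in iWAT adipocytes. The latter summed to 77.7 to 221 RPKM there and 21.5 to 53.1 in eWAT adipocytes. Of 6 fibroblast markers, only Dpt and Pi16 were called, both higher in iWAT adipocytes. The part of these cell types was not tested. Of the 7 genes for proteases that cleave proteoglycans, 5 could be tested, and Adamts1, Adamts5, Adamts9 and Adamts15 were higher in iWAT than in eWAT adipocytes. Adamts1 (chromosome 16, 85794072 to 85803360, minus strand), a protease for versican and aggrecan, had 60.8, 60.2, 63.4, 50.4, 113 and 63.4 RPKM in the iWAT samples and 20.7, 40.2, 29.6, 55.4, 37.3 and 39.8 in the eWAT samples. In BAT it had 7.78, 5.27, 3.09, 3.88, 4.21 and 4.82 RPKM. The eWAT samples overlapped those of iWAT adipocytes only through number 4, and BAT lay below both. Log2 fold changes were 0.88 (SE 0.23, edgeR adjusted p = 0.0037) for iWAT over eWAT adipocytes, 3.21 (SE 0.21) in iWAT adipocytes relative to BAT and 2.36 (SE 0.23) in eWAT adipocytes relative to BAT.

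Adamts5, an aggrecanase, lies 55.0 kb from Adamts1 on chromosome 16 and had the same order of tissues. It had 53.1, 60.3, 49.5, 48.6, 53.3 and 70.4 RPKM in the iWAT samples, 11.7, 31.4, 10.6, 32.0, 29.3 and 23.4 in the eWAT samples and 2.25 to 2.97 in BAT. The tissues did not overlap, and the log2 fold change of iWAT over eWAT adipocytes was 1.28 (SE 0.27, edgeR adjusted p = 9.2e-04). Adamts4, the other main aggrecanase, did not differ past the threshold between the white depots. It had 7.87, 4.08, 4.94, 5.09, 24.0 and 3.61 RPKM in the iWAT samples, 4.41 to 15.9 in the eWAT samples and 0.0911 to 0.503 in BAT. A single iWAT sample, number 5, carried the mean of 8.26 RPKM. Without iWAT samples 1 and 5 Adamts4 was called higher in eWAT adipocytes (log2 fold change -0.87). Over BAT the log2 fold change of Adamts4 was 4.22 (SE 0.50) in iWAT and 4.30 (SE 0.35) in eWAT adipocytes. Adamts9 had 4.01 ± 1.67, 2.13 ± 0.705 and 1.93 ± 0.427 RPKM, and its differences from BAT lay close to the threshold. The log2 fold change of Adamts9 was 0.43 for iWAT adipocytes over BAT (edgeR adjusted p = 0.056) and was called with DESeq2 (0.42), with no filter (0.53), without TMM (1.3) and with limma. For eWAT adipocytes over BAT that of Adamts9 was -0.45 (edgeR adjusted p = 0.051), called with a mean count of at least 50 (-0.52) and with Entrez rows only (-0.48), and 0.45 without TMM. Adamts15 (0.835 ± 0.431, 0.441 ± 0.121 and 0.129 ± 0.0292 RPKM) was called in all 3 comparisons.

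All 14 dissociation genes were higher in both white depots than in BAT. Between the white depots 8 of the 14 were higher in iWAT adipocytes and 2 in those of eWAT. These calls are 71.4% of the list, beside 68.6% of all symbols. Adamts4 had a log2 fold change of -0.05 between the white depots, and Adamts9 was not called over BAT in either depot. In iWAT adipocytes number 5 had the highest summed dissociation genes (5582 RPKM, against 3002 to 3937 in the other 5). Of the ADAMTS genes tested between the white depots, it was the highest sample for Adamts1, Adamts4, Adamts6, Adamts7, Adamts9, Adamts12, Adamts14 and Adamts17. For Adamts17 number 5 stood barely above number 1 (0.21567 against 0.21545 RPKM). This sample was also the highest for Adamts8 and Adamts18, which had too few reads to be tested. It was not the highest for Adamts2 and Adamts10 (number 2), Adamts3 and Adamts5 (number 16) or Adamts15 (number 1). In eWAT adipocytes the sample with the highest sum, number 3 (3896 RPKM), had the lowest Adamts5 and the second lowest Adamts1. It had the highest Adamts7, Adamts10, Adamts14 and Adamts17 and the second highest Adamts4. In BAT the sample with the highest sum, number 1 (480 RPKM), had the highest Adamts1, Adamts4 and Adamts7, but not the highest Adamts5 or Adamts9. Number 5 of BAT, with the lowest sum (59.4 RPKM), had the lowest Adamts1, Adamts4 and Adamts9 but the highest Adamts3 and Adamts15. The share of all symbols with their highest or lowest value in each of these samples was not computed. Whether these lists are unusual was therefore not tested. The part of the digestion in the difference between white adipocytes and BAT was not tested, and tissue, preparation and lane cannot be told apart there.

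The procollagen N-propeptidases remove the amino-terminal ends of fibrillar procollagens. Adamts2, the main enzyme of the class, had 11.3, 13.1, 10.1, 9.52, 10.7 and 11.5 RPKM in the iWAT samples, 3.65 to 7.55 in the eWAT samples and 0.801 to 1.35 in BAT. The tissues did not overlap (log2 fold changes 0.94, SE 0.17, then 2.88, SE 0.13, and 1.96, SE 0.18). Adamts14 was the only ADAMTS gene that was higher in eWAT than in iWAT adipocytes. It had 0.433, 0.167, 0.384, 0.238, 0.565 and 0.219 RPKM in the iWAT samples, 1.33, 0.928, 2.00, 1.45, 1.13 and 1.62 in the eWAT samples and 0.05 to 0.114 in BAT. Its log2 fold change was -2.08 (SE 0.26, edgeR adjusted p = 1.6e-05) between the white depots and 3.55 (SE 0.22) in eWAT adipocytes relative to BAT. The 2 related enzymes thus differed in opposite directions between the depots. Adamts3 stayed at or below 0.124 RPKM in every sample and was called only as lower in eWAT adipocytes than in BAT (-0.99, SE 0.37).

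Both ADAMTS genes for proteases that cleave COMP, a cartilage matrix protein, were higher in iWAT adipocytes. Adamts12 had 2.60 to 6.41 RPKM in iWAT adipocytes, 1.41 to 2.1 in those of eWAT and 0.346 to 0.569 in BAT, with no overlap. Adamts7 had 0.747 to 2.52, 0.517 to 0.871 and 0.267 to 0.460 RPKM, and the white depots overlapped. Their log2 fold changes between the white depots were 1.09 (SE 0.20) and 1.14 (SE 0.27). Adamts10, which binds fibrillin, and the little studied Adamts6 and Adamts17 were also higher in iWAT than in eWAT adipocytes. Adamts17 was low (0.132 ± 0.0685, 0.0285 ± 0.0105 and 0.0251 ± 0.0102 RPKM) with the largest log2 fold change of this direction, 2.21 (SE 0.36, edgeR adjusted p = 1.4e-04). It had 13 to 47 reads per iWAT sample, 5 to 10 per eWAT sample and 2 to 10 per BAT sample. Adamts17 reached the mean count of 10 only through iWAT adipocytes, where it was higher, so the filter partly fixed this direction. The call of Adamts10 between the white depots (0.29, edgeR adjusted p = 0.044) was lost without TMM (0.20), with limma, with Entrez rows only, with all 18 samples in 1 fit, with lane as a covariate and without iWAT samples 1 and 5. Adamts10 was nearly level, at 2.00 ± 0.266, 1.65 ± 0.279 and 1.71 ± 0.315 RPKM. It was called higher in BAT than in iWAT adipocytes (-0.38, SE 0.12), against the order of the RPKM means, and without TMM this log2 fold change was 0.48.

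Lox, the founding lysyl oxidase, had 56.0, 66.6, 47.8, 44.2, 57.9 and 71.0 RPKM in the iWAT samples, 12.3, 37.3, 13.6, 31.2, 27.7 and 22.9 in the eWAT samples and 8.86, 8.69, 9.09, 9.30, 8.08 and 12.4 in the BAT samples. The iWAT samples stood above all others, and the lowest eWAT sample lay just below the highest BAT sample. Log2 fold changes were 1.25 (SE 0.26, edgeR adjusted p = 7.5e-04) for iWAT over eWAT adipocytes, 1.99 (SE 0.15) in iWAT adipocytes relative to BAT and 0.76 (SE 0.24, adjusted p = 0.0078) in eWAT adipocytes relative to BAT. Lox held 74.4 ± 3.33% of the summed lysyl oxidase level in iWAT adipocytes, 59.6 ± 11.1% in those of eWAT and 50.6 ± 7.38% in BAT. Loxl1, which is needed for elastic fibres, had 9.74 to 13.8 RPKM in iWAT adipocytes, 4.84 to 8.73 in those of eWAT and 3.62 to 9.04 in BAT. It was higher in iWAT adipocytes than in eWAT adipocytes (0.96, SE 0.15) and BAT (0.46, SE 0.17), the latter call being lost without BAT sample 1 (0.41). Its call as higher in BAT than in eWAT adipocytes (-0.47, SE 0.19) ran against the RPKM means, and without TMM the log2 fold change was 0.42.

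Loxl3, unlike Lox, was highest in eWAT adipocytes. It had 2.82, 2.23, 2.43, 2.38, 2.80 and 1.85 RPKM in the iWAT samples and 5.12, 4.04, 5.33, 4.10, 3.62 and 4.06 in the eWAT samples, with no overlap, and 2.15 to 2.57 in BAT. The log2 fold change was -0.85 (SE 0.11, edgeR adjusted p = 1.6e-05) for iWAT over eWAT adipocytes. For iWAT adipocytes over BAT it was -0.59 (SE 0.09), or 0.27 without TMM. For eWAT adipocytes over BAT that of Loxl3 was 0.29 (edgeR adjusted p = 0.014), a call lost with a mean count of at least 50 (0.21, adjusted p = 0.055) and without eWAT samples 1 and 3 (0.16, adjusted p = 0.083). Loxl3 shares 12.8% of its exon bases with Htra2. Loxl2, which cross-links basement membrane collagen, had 5.01 ± 2.44, 4.25 ± 0.705 and 1.29 ± 0.233 RPKM and Loxl4 had 0.505 ± 0.108, 0.442 ± 0.138 and 0.0948 ± 0.0312 RPKM. Both were higher in the white depots than in BAT and did not differ past the threshold between them (0.23, SE 0.24, and 0.20, SE 0.21). Without iWAT samples 1 and 5 the value of Loxl2 was -0.22.

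Across the 37 genes tested, 12 were thus called higher in iWAT adipocytes than in both other tissues. Another 8 were called higher in eWAT adipocytes than in both other tissues. The share of all symbols with each order of tissues given here was not computed, so whether these counts are unusual was not tested. Calls were common, at 68.6% of all symbols between the white depots, 75.3% for iWAT adipocytes over BAT and 82.5% for eWAT adipocytes over BAT. The first group holds 7 ADAMTS genes (Adamts1, Adamts2, Adamts5, Adamts7, Adamts12, Adamts15 and Adamts17) with Lox, Loxl1, Mmp3, Mmp28 and Timp4. The second holds Mmp12, Mmp13, Mmp19, Mmp27, Timp1, Timp2, Adamts14 and Loxl3. Mmp3 and Loxl1 in the first group and Loxl3 in the second rest on a call that was lost without the samples named above. Adamts17 in the first group and Mmp27 in the second reached the mean count of 10 only through the tissue where they were higher. Another 5, Adamts4, Loxl2, Loxl4, Mmp9 and Mmp14, were higher in both white depots than in BAT without a call between the depots. Adamts10, Mmp15, Mmp17 and Mmp24 were called higher in BAT than in both white depots, an order that was lost for all 4 without TMM, where their log2 fold changes for iWAT adipocytes over BAT lay above 0.

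The eWAT samples were not alike. Numbers 1 and 3 had the lowest summed adipocyte markers (703 and 517 RPKM, against 1303 to 1812) and the highest summed macrophage markers. They were the 2 lowest eWAT samples for Adamts1, Adamts2, Adamts5, Adamts9, Lox, Mmp28 and Timp4, 7 of the 27 genes expressed there. They were the 2 highest for Loxl3, Mmp2, Mmp11, Mmp12, Mmp19 and Timp2, 6 of the 27. Of all 14059 symbols with a mean of at least 1 RPKM in eWAT adipocytes, 18.9% and 26.2% had these 2 samples as the 2 lowest and the 2 highest. Without them, 27 of 36 members differed between the white depots and 25 of 34 between eWAT adipocytes and BAT. In iWAT adipocytes, samples 1 and 5 had the highest summed endothelial markers (252 and 296 RPKM, against 104 to 188) and were the 2 highest for 14 of the 28 expressed genes, beside 23.0% of 14193 symbols. These 14 were Adamts4, Adamts7, Adamts9, Adamts12, Loxl2, Loxl3, Mmp2, Mmp3, Mmp11, Mmp14, Mmp15, Mmp23, Timp1 and Timp3. Without them, 25 of 37 members differed between the white depots, with 15 higher in iWAT and 10 in eWAT adipocytes. The part of other cell types in these levels was not tested.

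**Figure D5:**
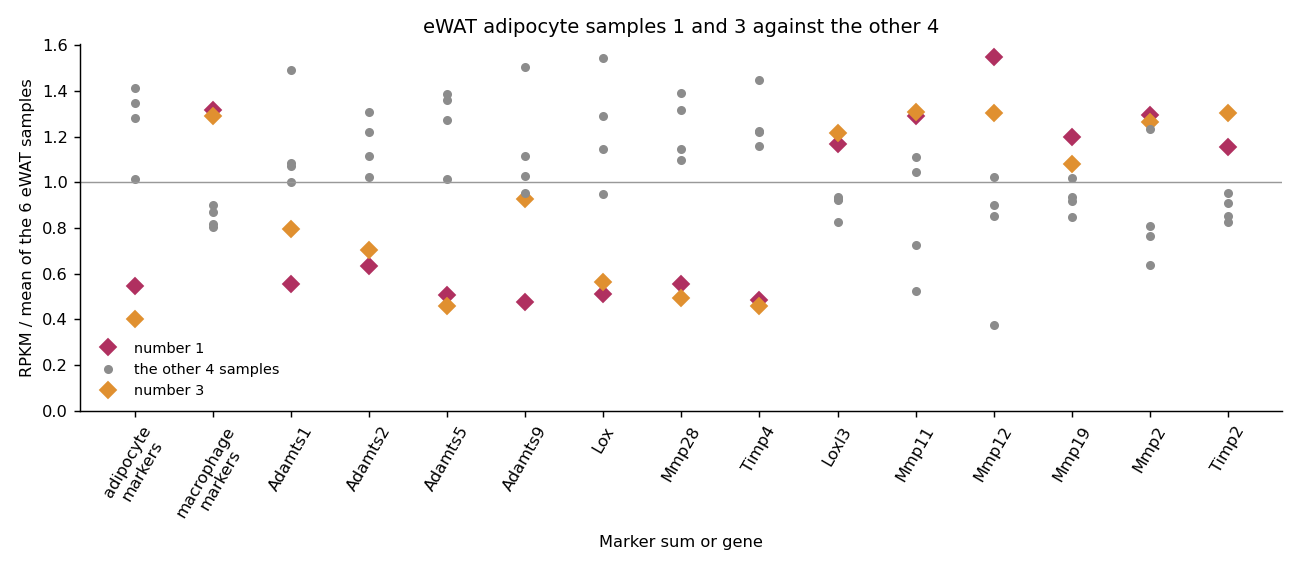
Each eWAT sample relative to the mean of the 6, for the summed adipocyte and macrophage markers and for the 13 genes in which samples 1 and 3 (diamonds) were the 2 lowest or the 2 highest. The genes were picked for this order, and the plot shows its size, with samples 1 and 3 near 0.5 times the mean for Adamts5, Lox, Mmp28 and Timp4.

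Other genes of matrix turnover were read from lists of related genes. Between the white depots 68.6% of all symbols were called, with 34.1% higher in iWAT and 34.5% in eWAT adipocytes. Of the genes tested, 81.8% of the activators and regulators, 100% of the ADAM sheddases, 90% of the collagen-processing and 66.7% of the ADAMTS-like genes were called. Of 13 activators and surface regulators of these enzymes, 11 could be tested. In eWAT over iWAT adipocytes, Plau, the urokinase that generates plasmin, its receptor gene Plaur, Furin, a convertase that activates membrane-type MMPs, and Lrp1, a receptor that clears MMPs, were higher (4 of 11), and Pcsk5, Pcsk6, Serpine2, Reck and Bsg were lower. Plau had 54.0 ± 16.2 RPKM in iWAT adipocytes, 155 ± 22.5 in those of eWAT and 3.20 ± 0.557 in BAT. Of 7 ADAM sheddases, 6 were higher in eWAT than in iWAT adipocytes, led by Adam8 (25.9 ± 7.31, 114 ± 29.5 and 0.343 ± 0.0904 RPKM), a myeloid sheddase, and Adam12 alone was lower. Of 12 genes that process collagen, 10 could be tested, and 8 of them were higher in iWAT than in eWAT adipocytes, among them Pcolce2, an enhancer of procollagen cleavage (log2 fold change 1.64, SE 0.35), and Serpinh1, a collagen chaperone (0.95, SE 0.24). P4ha1, a subunit of the collagen prolyl hydroxylase, was lower (-0.69, SE 0.07). Of the 6 ADAMTS-like genes, which lack the protease domain, Adamtsl2, Adamtsl4 and Papln were higher in iWAT than in eWAT adipocytes and Adamtsl5 was lower. Against BAT, 7 of the 11 activators and regulators were higher and 2 lower in iWAT adipocytes, and 6 were higher and 3 lower in eWAT adipocytes. For the 7 ADAM sheddases, 6 were higher in either white depot, and Adam12 was lower in eWAT adipocytes. For the 10 collagen-processing genes, 7 were higher and 2 lower in iWAT adipocytes, and 6 were higher and 3 lower in eWAT adipocytes. Of all symbols, 75.3% were called for iWAT adipocytes over BAT and 82.5% for eWAT adipocytes over BAT. The activators and regulators had 81.8% in both, the ADAM sheddases 85.7% and 100%, and the collagen-processing genes 90% in both.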

How the data were processed

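Groups of the 18 HFD samples are the tissues their labels name. Per the labels, libraries were made with a NEBNext Ultra kit, and the submitters' processing notes name cutadapt 1.16, HISAT2 2.1.0 and the mm9 build. The counting program, the annotation and the handling of strand and of reads that map to several places are not given in the sources used here. The authors deposited whole-number read counts of transcript rows, with the RPKM computed from them. The files hold no comparisons of the authors.

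Where a symbol had several rows, the one whose RPKM averaged highest across all 18 samples stood for it. Adamts5 has 2 rows with an Entrez gene ID, and the higher was taken. Counts were tested with edgeR 4.0.16 (glmQLFit and glmQLFTest, TMM, two-sided) in R 4.3.3, each pair of tissues on its own 12 samples, with a mean count of at least 10 and Benjamini-Hochberg adjustment over all symbols tested. SEs of log2 fold changes follow from the F statistics. The study names no test for these data. The scripts were tested on simulated data. Floors reflect counting error and take no account of PCR duplicates. A fold against a group at the floor was computed on TMM-scaled RPKM from 3 reads per library. No pair of replicate libraries was alike within sampling noise (lowest chi-square divided by its degrees of freedom 14.29, r of log2 RPKM 0.9732 to 0.9899). Named genes are those with a mean of at least 1 RPKM in at least 1 tissue, the 5 with the largest log2 fold change in each direction among those called in a comparison, and those with a value far from the other 5 of a tissue; other members named were chosen after their values were seen. The members, gene lists and marker lists were chosen with earlier results of these data known.

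Alternatives were a replicate block, DESeq2 1.42.0 and its size factors, no TMM, limma 3.58.1 on log2(RPKM + 0.1) or log2(RPKM + 1), no filter, a mean count of at least 50, summed rows, rows with an Entrez gene ID only, all 18 samples in 1 fit, lane as a covariate for the white depots, and a log2 fold change of at least 1. Promoters and gene models were read from RefSeq (GRCm38.p6) and GENCODE vM1 (mm9) with Python 3.11.15, pandas 2.3.3, numpy 2.4.6, scipy 1.17.1 and matplotlib 3.10.9.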

Additional observations from a re-analysis of the deposited data

Results flagged for a closer look

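Of 143 groups of 6 samples with reads, 18 held a value whose gap to the nearest of the other 5 took up an unusually large part of the group's range, where chance gives about 7.15 (about 1 group in 20). Of the 18, 8 stand on at most 9 reads. These are Adamts13 in BAT sample 2 (0.00887 RPKM, 2 reads), Adamts16 in eWAT sample 5 (0.00493 RPKM, 1 read), Adamts19 in iWAT sample 16 (0.00672 RPKM, 3 reads), Mmp16 in eWAT sample 4 (0.00308 RPKM, 1 read), Mmp1a in eWAT sample 4 (0.0185 RPKM, 1 read), Mmp27 in iWAT sample 4 (0.0291 RPKM, 2 reads) and in BAT sample 16 (0.0197 RPKM, 1 read), and Mmp8 in BAT sample 2 (0.0211 RPKM, 2 reads).

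The other 10 rest on more reads. In iWAT adipocytes, sample 5 stood above the others for Adamts1 (113 RPKM, against 50.4 to 63.4), Adamts4 (24.0, against 3.61 to 7.87), Adamts9 (7.21, against 2.65 to 4.27) and Adamts8 (0.136, against 0.0139 to 0.0512, on 19 reads). This sample also had the highest summed dissociation genes and endothelial markers of its tissue, and their part in these values was not tested. In eWAT adipocytes, sample 4 stood above the others for Adamts4 (15.9 RPKM, against 4.41 to 8.59), Mmp23 (1.92, against 0.715 to 1.03) and Mmp17 (0.202, against 0.0396 to 0.1). In BAT, sample 2 was high for Adamts6 (0.528 RPKM, against 0.245 to 0.343), sample 18 was high for Lox (12.4, against 8.08 to 9.30) and sample 16 was low for Mmp28 (1.63, against 2.11 to 2.33).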

How the results depend on the processing

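For 34 named genes, 98 results were recomputed under 1291 alternatives: 1184 kept their direction and side of the threshold, 40 lost a call in the same direction, 28 gained one and 39 changed direction. No TMM changed the direction of Adamts10 (0.48), Adamts6 (0.79), Loxl3 (0.27), Mmp15 (0.30), Mmp17 (0.01) and Mmp24 (0.18) for iWAT adipocytes over BAT, of Adamts10 (0.27), Adamts9 (0.45), Loxl1 (0.42) and Mmp28 (0.63) for eWAT adipocytes over BAT and of Mmp2 (-0.05) between the white depots. With limma, which uses RPKM without TMM, and a pseudocount of 0.1 or 1, those that changed direction were Adamts10 (0.23 and 0.15), Adamts6 (0.47 and 0.16), Loxl3 (0.01 and 0.01) and Mmp15 (0.08 and 0.06) for iWAT adipocytes over BAT, Adamts9 (0.09 and 0.07), Loxl1 (0.15 and 0.12) and Mmp28 (0.21 and 0.17) for eWAT adipocytes over BAT and Mmp2 (-0.13 and -0.1) between the white depots. Mmp2 also changed direction there with Entrez rows only (-0.02), all 18 samples in 1 fit (-0.01) and lane as a covariate (-0.03), and Adamts6 with no filter (0.04, iWAT adipocytes over BAT). The 5 members called higher in BAT than in iWAT adipocytes became 0 without TMM, with limma at either pseudocount (in each case also 0 at an unadjusted p under 0.05) and with a log2 fold change of at least 1. DESeq2 called 5. The 9 called higher in BAT than in eWAT adipocytes became 3 without TMM and 5 with limma or a log2 fold change of at least 1, and the 19 called higher in iWAT than in eWAT adipocytes became 12 with that fold. Without TMM the median of all genes moved to 0.87 and 0.89 in the comparisons with BAT, and with limma at a pseudocount of 0.1 to 0.54 and 0.48. The cause of the other moves was not tested. With a cutoff of 0.1 RPKM, 30 genes counted as expressed in BAT.

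Same-numbered samples did not deviate together across genes (mean r -0.0081, -0.0208 and 0.0084 for the 3 pairs of tissues), and 1, 0 and 2 samples of the first tissue correlated best with their own number, so the numbers were not taken as pairs. With the number as a replicate block, 27, 27 and 29 members differed, and 2 instead of 5 were higher in BAT than in iWAT adipocytes. With the block the calls of Adamts10 between the white depots, of Adamts10, Mmp15, Mmp17 and Mmp23 for iWAT adipocytes over BAT and of Loxl3 and Mmp3 for eWAT adipocytes over BAT were lost, and Mmp2 (iWAT adipocytes over BAT) and Adamts9 (eWAT adipocytes over BAT) gained one. Mmp2 between the white depots (-0.13), Timp3 for iWAT adipocytes over BAT (-0.05) and Mmp23 for eWAT adipocytes over BAT (-0.09) changed direction, none of them called in either fit.

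The alternatives that leave out eWAT samples 1 and 3, iWAT samples 1 and 5 or BAT sample 1, which had the highest heat shock genes of its tissue, were chosen after seeing the data. Leaving out BAT sample 1 lost the calls of Loxl1 and Mmp17 for iWAT adipocytes over BAT. Leaving out eWAT samples 1 and 3 lost those of Mmp17 between the white depots and of Loxl1, Loxl3 and Mmp3 for eWAT adipocytes over BAT, where Mmp28 changed direction (0.05). Leaving out iWAT samples 1 and 5 lost those of Adamts10, Mmp3 and Mmp17 between the white depots and of Mmp11 and Mmp23 over BAT, and changed the direction of Loxl2 (-0.22), Mmp14 (-0.35) and Mmp2 (-0.55) between the white depots and of Timp3 (-0.22) over BAT. Genes with few reads in every sample are limited by depth.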
